A study of Mus musculus with 2 samples.

Results

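The 34 genes described here are type I interferon-stimulated genes, given as a list of gene symbols and found in the deposited count table through their Ensembl IDs. All 34 symbols matched an ID, of 55487 gene IDs in the table. The list holds the IFIT, OAS, Mx and IFITM families, the ISG15 system, sensors of foreign nucleic acid, the signal transducer Stat2 and 9 other effectors. RNA was sequenced from 2 cultures of lineage-negative bone marrow cells of C57BL/6 mice, 1 for each form of EVI1, the zinc finger protein of the Mecom locus that binds DNA and controls blood stem cells. The retroviral vectors were pMYs-IG_3xHA-EVI1-WT, for the tagged wild-type protein, and pMYs-IG_3xHA-EVI1+18, for the product of an aberrant splicing of EVI1. Both forms were overexpressed from the retrovirus, and no culture free of added EVI1 was compared. Cells sorted for green fluorescence 3 days after infection were grown for about 3 weeks in MethoCult M3434, a semi-solid medium in which blood progenitors form colonies, at 10000 cells a culture. The libraries held 20480447 counts (EVI1-WT) and 20981903 counts (EVI1+18), and the labels give neither the number of animals nor a second culture of either kind.

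Type I interferons bind a receptor made of the Ifnar1 and Ifnar2 products, whose kinases JAK1 and TYK2 phosphorylate STAT proteins, STAT2 among them. With IRF9 these form a complex that binds the interferon-stimulated response element (ISRE) in the promoters of the target genes. The products of those genes block viral entry, translation and replication, and several of them are sensors or inhibitors of the same pathway. In the marrow, interferon drives resting blood stem cells into division, and stem cells keep a basal level of part of this gene set without infection.

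The ISRE is the sequence that the members are known for, so their promoters are shown first. RefSeq windows on GRCm38.p6, running from 250 bases before to 50 bases after an annotated start, were given for 25 of the 34 members. The core searched was GAAANNGAAA on either strand (TTTCNNTTTC on the other). It stood in a window of 15 of the 25 members (60.0%) and of 1079 of 27025 genes with a window of the same length (3.99%). The second motif, the gamma-activated site TTCNNNGAA, which reads the same on both strands and is known from genes that respond to interferon gamma, stood in 8 of the 25 members (32.0%) and in 9.55% of all genes. In 2 members, Bst2 and Ifitm3, a gamma-activated site overlapped an ISRE core. More than 1 core stood in the windows of 8 members, and in 4 of these the cores overlapped one another. The stretches below show the core that lies nearest to the start from upstream, with every core in capitals, each written 5′ to 3′ on the strand of its gene and ending at the start site where that is closer than 20 bases. They were chosen to show the overlapping cores of Isg15, the cores of IFIT and OAS genes with near copies, and Bst2 and Rsad2, whose levels are given below.
Isg15 (chr4:156200855-156200904, minus strand): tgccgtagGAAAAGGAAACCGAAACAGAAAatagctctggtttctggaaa
Ifit1 (chr19:34640784-34640833, plus strand): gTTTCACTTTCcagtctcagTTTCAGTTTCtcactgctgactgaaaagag
Ifit3 (chr19:34583387-34583436, plus strand): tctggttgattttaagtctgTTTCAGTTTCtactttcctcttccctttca
Ifit3b (chr19:34607783-34607832, plus strand): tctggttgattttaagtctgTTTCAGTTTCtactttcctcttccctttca
Oas1a (chr5:120907526-120907559, minus strand): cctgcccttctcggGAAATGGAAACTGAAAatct
Oas1g (chr5:120887614-120887645, minus strand): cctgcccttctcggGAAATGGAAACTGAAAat
Bst2 (chr8:71537567-71537616, minus strand): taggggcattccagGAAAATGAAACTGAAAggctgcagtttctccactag
Rsad2 (chr12:26456543-26456592, minus strand): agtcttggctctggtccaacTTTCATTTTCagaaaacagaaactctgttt

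The Isg15 stretch holds 3 overlapping cores. Those of Ifit3 and Ifit3b were identical over all 50 bases, and those of Oas1a and Oas1g over the 32 bases compared. In 11 of the 15 members every core ended before the start site, and in the other 4, Ddx58, Eif2ak2, Ifih1 and Ifitm3, a core lay at or after it. A match is a description of the letters and not a measured binding site.

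**Figure D1:**
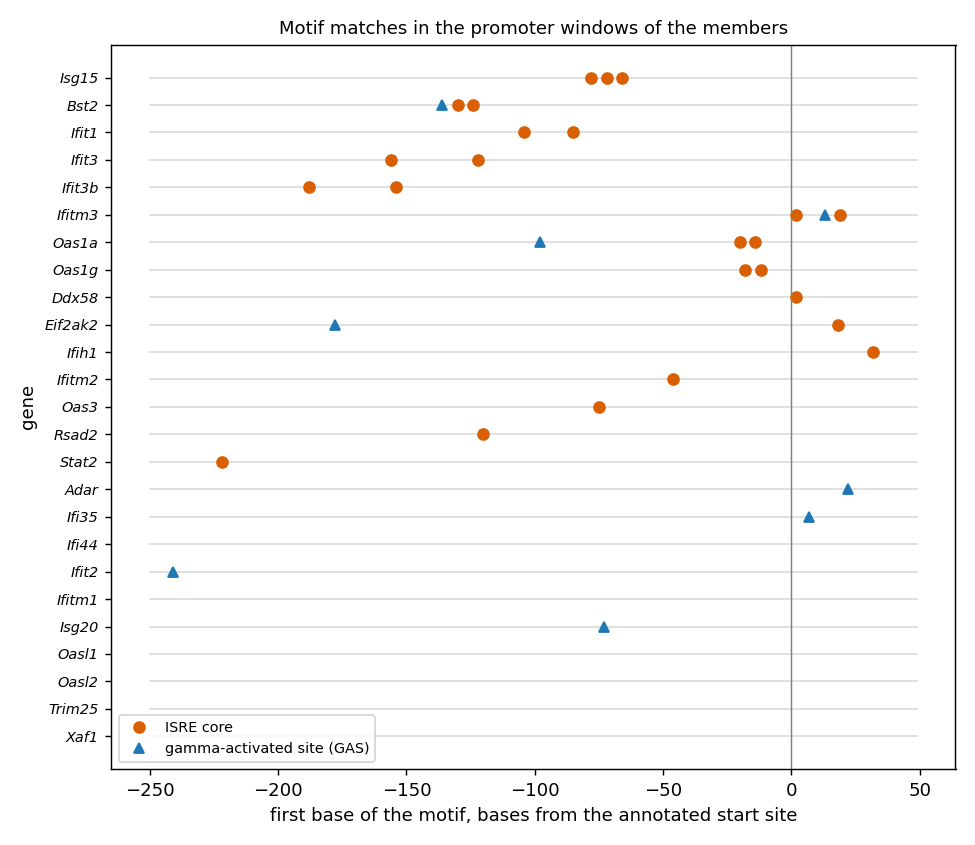
Position of each ISRE core (circles) and gamma-activated site (triangles) in the promoter windows of the 25 members with a window, in bases from each window's own annotated start site (0). Grey lines are the windows from 250 bases before to 50 bases after the start. The 15 members with a core stand at the top, led by Isg15 with 3.

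Levels are given as counts and as scaled CPM, which are counts relative to library size after the libraries were scaled to each other. Each ratio of EVI1+18 over EVI1-WT comes with a 95% exact counting interval. The interval covers counting error only, since each group had 1 library, and no difference below has a replicate check or a p-value. The filter for testing was 1 scaled CPM in either library, which 13183 genes passed. A gene counted as at least 2-fold apart when all of its interval was past 2-fold, up or down. By this rule 5.05% of the tested genes were higher in EVI1+18 and 5.1% were lower. Of the 34 members, 31 passed the filter, 2 of them (Ifit3 and Mx2) only through the EVI1+18 library. Ifit3b and Oasl1 had counts below it, and Ifi44 had 0 counts in both libraries, which allows up to 0.150 scaled CPM with EVI1-WT and 0.140 with EVI1+18.

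The interferon-stimulated genes did not move as a block between the cultures. Mx1, Mx2 and Ifit2 were at least 2-fold higher in EVI1+18, Ifi27l2a was at least 2-fold lower, and the other 27 tested members were neither. These 3 and 1 of 31 stand beside the shares of 5.05% and 5.1% over all tested genes. The median log2 ratio of the tested members was 0.11, and that of all tested genes was 0.01, with quartiles of -0.32 and 0.30. The intervals of 11 members lay wholly above a ratio of 1, those of 13 wholly below and those of 7 included it. Among all tested genes, 33.4% lay wholly above 1 and 32.8% wholly below. Some member intervals ended close to 1, as those of Adar (up to 0.986) and Oas1a (from 0.993). Scaling by total counts raised these ratios from 0.906 to 0.9475 and from 1.114 to 1.165. The split into above, below and including 1 was not recounted with other scalings, so it holds for the scaling used. Under looser rules Ifit1, Ifit3 and Isg15 joined the higher members and Zbp1 the lower. By the ratio alone past 2-fold, 6 members were higher, beside 7.87% of all tested genes, and 2 were lower, beside 8.38%. With the whole interval past 1.5-fold the members numbered 6 and 2 again, beside 8.29% and 9.79%.

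**Figure D2:**
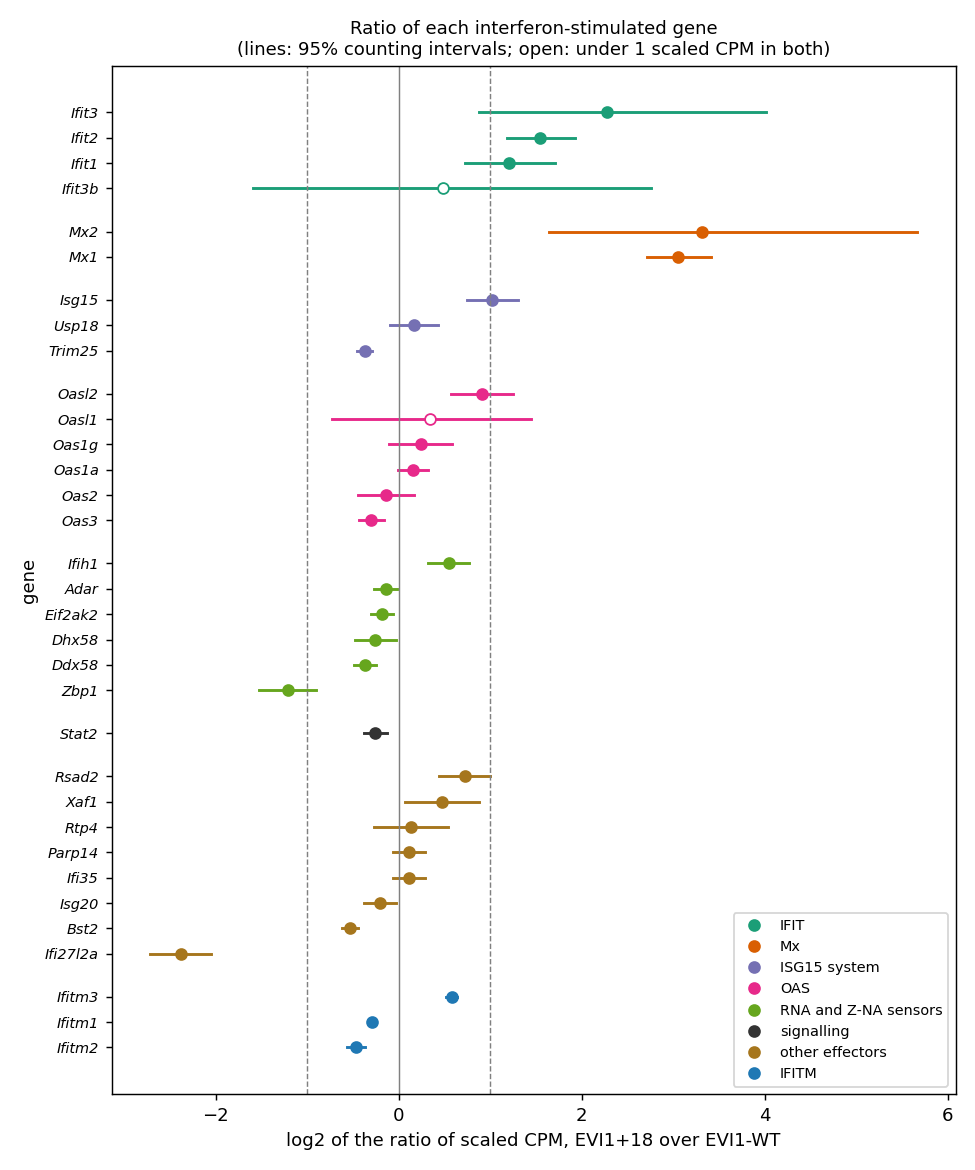
Ratio of scaled CPM, EVI1+18 over EVI1-WT, on a log2 axis for the 33 members with a count, by subfamily. Points are ratios, lines are 95% counting intervals, open points are under 1 scaled CPM in both libraries, and dashed lines mark 2-fold. The Mx genes lie farthest to the right and Ifi27l2a farthest to the left, while the OAS and IFITM genes lie inside the dashed lines by their ratios.

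The Mx genes were the farthest apart. They encode dynamin-like GTPases that trap viral nucleocapsids. In C57BL/6 mice both are known to be disrupted, so their counts measure RNA and do not stand for working protein. Mx1 (ENSMUSG00000000386, chromosome 16, 97447035 to 97462907) went from 77 counts with EVI1-WT to 686 with EVI1+18, which is 3.84 and 32.0 scaled CPM. Mx2 (ENSMUSG00000023341, chromosome 16, 97535308 to 97560900), annotated as a polymorphic pseudogene, had 3 and 32 counts, or 0.150 and 1.49 scaled CPM. Both neighbours were low with EVI1-WT, where Mx2 was at the limit that a count of 0 allows. The ratio was 8.32-fold for Mx1 (interval 6.56 to 10.7) and 9.96-fold for Mx2 (3.11 to 50.8). Of the 50-base words in the Mx1 transcripts, 3.86% also occur in Mx2. Mx1 had so many more counts that a few percent of its reads would equal most of the counts of Mx2, so the Mx2 ratio is uncertain. The pair summed to 80 and 718 counts, a ratio of 8.38 (6.64 to 10.7).

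The IFIT genes, whose products bind the 5′ ends of viral RNA, lay on the same side. They form a cluster on chromosome 19. Ifit2 (ENSMUSG00000045932, 34550694 to 34576419) showed 82 counts with EVI1-WT against 257 with EVI1+18, or 4.09 and 12.0 scaled CPM, a 2.93-fold ratio (2.27 to 3.80). Ifit1 (ENSMUSG00000034459, 34640871 to 34650009) had 50 and 124 counts, or 2.50 and 5.78 scaled CPM, and its 2.31-fold ratio had an interval of 1.65 to 3.28 that reached below 2. Ifit3, with 5 and 26 counts, had a ratio of 4.85 (1.83 to 16.2). Its near copy Ifit3b, with 4 and 6 counts, had a ratio of 1.40 and an interval of 0.332 to 6.75 that included equality. The intervals of Ifit1, Ifit2 and Ifit3 all lay above 1. Reads cannot be placed with certainty between the copies, because 51.2% of the 50-base words of Ifit3 occur in Ifit3b and 44.5% of those of Ifit3b in Ifit3. Their sum went from 9 to 32 counts, a ratio of 3.32 (1.55 to 7.90), and that of the 4 IFIT genes from 141 to 413 counts, a ratio of 2.73 (2.25 to 3.33).

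Most OAS genes lay close to equality. They encode synthetases that make 2′-5′-linked oligoadenylates in the presence of double-stranded RNA. Oas1a had 554 and 661 counts, or 27.7 and 30.8 scaled CPM, a ratio of 1.11 (0.993 to 1.25). Oas1g had 128 and 162 counts and a ratio of 1.18 (0.931 to 1.5). Oas2 had 184 and 179 counts and stood 1.10-fold lower with an interval of 0.892 to 1.36, so the intervals of these 3 genes all included equality. Oas3 had 920 and 802 counts, or 45.9 and 37.4 scaled CPM, and its level was 1.23-fold lower (1.12 to 1.35). The OAS-like gene Oasl2 lay on the other side with 108 and 217 counts, or 5.39 and 10.1 scaled CPM, a ratio of 1.88 (1.48 to 2.38). Oasl1 had 14 and 19 counts. The range of log2 ratios over the 5 tested OAS genes was -0.30 to 0.90, and 0 of the 5 were at least 2-fold apart. Oas1a and Oas1g, which share 57.6% of the words of Oas1a, summed to 682 and 823 counts, a ratio of 1.13 (1.02 to 1.25).

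In the ISG15 system the members split. Isg15, a ubiquitin-like protein that is joined to other proteins under interferon, showed 155 counts with EVI1-WT against 338 with EVI1+18, or 7.74 and 15.8 scaled CPM. Its ratio was 2.04 with an interval of 1.68 to 2.48, so its whole interval lay above 1 but not above 2. Usp18, which removes ISG15 and also blocks the interferon receptor, had 219 and 264 counts, a ratio of 1.13 (0.937 to 1.35) that included equality. Trim25, a ubiquitin ligase that activates the RNA sensor RIG-I, had 2533 and 2099 counts, or 126 and 97.8 scaled CPM, and was 1.29-fold lower (1.22 to 1.37). The enzymes that attach ISG15, which are no members, were all on the higher side. The conjugating enzyme Ube2l6 had 35 and 538 counts, or 1.75 and 25.1 scaled CPM, a 14.3-fold ratio (10.2 to 20.8). The activating enzyme Uba7 had 123 and 171 scaled CPM, a ratio of 1.39 (1.32 to 1.47), and the ligase Herc6 11.9 and 15.8 scaled CPM, a ratio of 1.33 (1.13 to 1.58). Ube2l6 alone of these 3 enzymes was at least 2-fold apart, and its ratio exceeded that of Isg15 with intervals that did not overlap.

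Of the 6 sensors and RNA-binding effectors, 5 had ratios below 1. Ddx58, which encodes RIG-I, had 1249 and 1041 counts, or 62.4 and 48.5 scaled CPM, and was 1.29-fold lower (1.18 to 1.40). Dhx58, its regulator LGP2, had 354 and 318 counts and was 1.19-fold lower (1.02 to 1.39). The translation-blocking kinase PKR, Eif2ak2, with 1133 and 1072 counts, was 1.13-fold lower (1.04 to 1.23). For these 3 and for the RNA-editing enzyme Adar (1128 and 1095 counts, 1.10-fold lower, 1.01 to 1.20) the intervals lay below equality by small margins. Ifih1, which encodes the long-RNA sensor MDA5, lay on the other side with 264 and 413 counts, or 13.2 and 19.2 scaled CPM, a ratio of 1.46 (1.25 to 1.71). Zbp1, a sensor of Z-form nucleic acid that triggers cell death, had 270 and 125 counts, or 13.5 and 5.83 scaled CPM. It was 2.31-fold lower, and its interval of 1.87 to 2.88 reached below 2. The signal transducer Stat2 had 1148 and 1031 counts, or 57.3 and 48.1 scaled CPM, and was 1.19-fold lower (1.10 to 1.30).

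Among the other effectors, Ifi27l2a stood apart. This gene of a small membrane protein (ENSMUSG00000079017, chromosome 12, 103442167 to 103443680) went from 452 to 93 counts, or 22.6 and 4.33 scaled CPM, a 5.21-fold lower level (4.16 to 6.58). Its 2 neighbours on chromosome 12 were lower as well. Ifi27 (103434211 to 103440239) had 1704 and 487 counts, or 85.1 and 22.7 scaled CPM, and was 3.75-fold lower (3.39 to 4.15). Ifi27l2b (103450898 to 103457223) was under the filter with 11 and 0 counts, at least 3.93-fold lower against a floor of 3 counts in EVI1+18, with a counting interval that starts at 2.69-fold. Only 0.483% of the 50-base words of Ifi27l2a occur in any other gene, so shared sequence could move few of its counts. The 3 genes together went from 108 to 27.0 scaled CPM, 4.0-fold lower (3.65 to 4.39). Ifi27 and Ifi27l2b were listed as paralogs of Ifi27l2a and are no members.

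Bst2, which encodes tetherin, the membrane anchor that holds budding virus at the cell surface, had 2568 and 1904 counts, or 128 and 88.7 scaled CPM. It was 1.45-fold lower (1.36 to 1.53). Rsad2, or viperin, which makes a chain-terminating nucleotide, had 166 and 293 counts, or 8.29 and 13.7 scaled CPM, a ratio of 1.65 (1.36 to 2.01). Both carry an ISRE core in the stretches printed above, and they lay on opposite sides of equality. The pro-apoptotic factor Xaf1 had 89 and 132 counts, a ratio of 1.38 (1.05 to 1.83), and the exonuclease gene Isg20 had 576 and 537 counts, 1.15-fold lower (1.02 to 1.29). Ifi35 (507 and 586 counts), Parp14, an ADP-ribosyltransferase (500 and 580 counts), and the chaperone Rtp4 (98 and 115 counts) had intervals that included equality. Their ratios were 1.08, 1.08 and 1.10. Exons of other genes overlap 16.8% of the exonic bases of Ifi35 and 16.8% of those of Adar, both on the opposite strand, and 13.9% of those of Rtp4 on the same strand, so these counts are less certain.

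The IFITM genes, whose products sit in membranes and hinder the fusion of viruses with the cell, held most of the members' reads, with no correction for length. Together the 3 genes took 67.2% of the summed scaled CPM of all 34 members in EVI1-WT and 66.4% in EVI1+18. Ifitm1 had 26245 and 22933 counts, or 1310.5 and 1069 scaled CPM, and was 1.23-fold lower (1.20 to 1.25). Ifitm2, with 2114 and 1640 counts, was 1.38-fold lower (1.29 to 1.47). Ifitm3, with 3442 and 5516 counts, or 172 and 257 scaled CPM, stood 1.5-fold higher (1.43 to 1.56). Neighbours of one cluster on chromosome 7 thus lay on both sides of equality, and the 2 directions held with the other scalings tried. Ifitm2 is the least certain of the 3, since 40.9% of its exonic bases overlap a predicted gene on the same strand (Gm45717). A further gene of the cluster, Ifitm6, with 177 and 69 counts, was 2.75-fold lower (2.07 to 3.68).

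**Figure D3:**
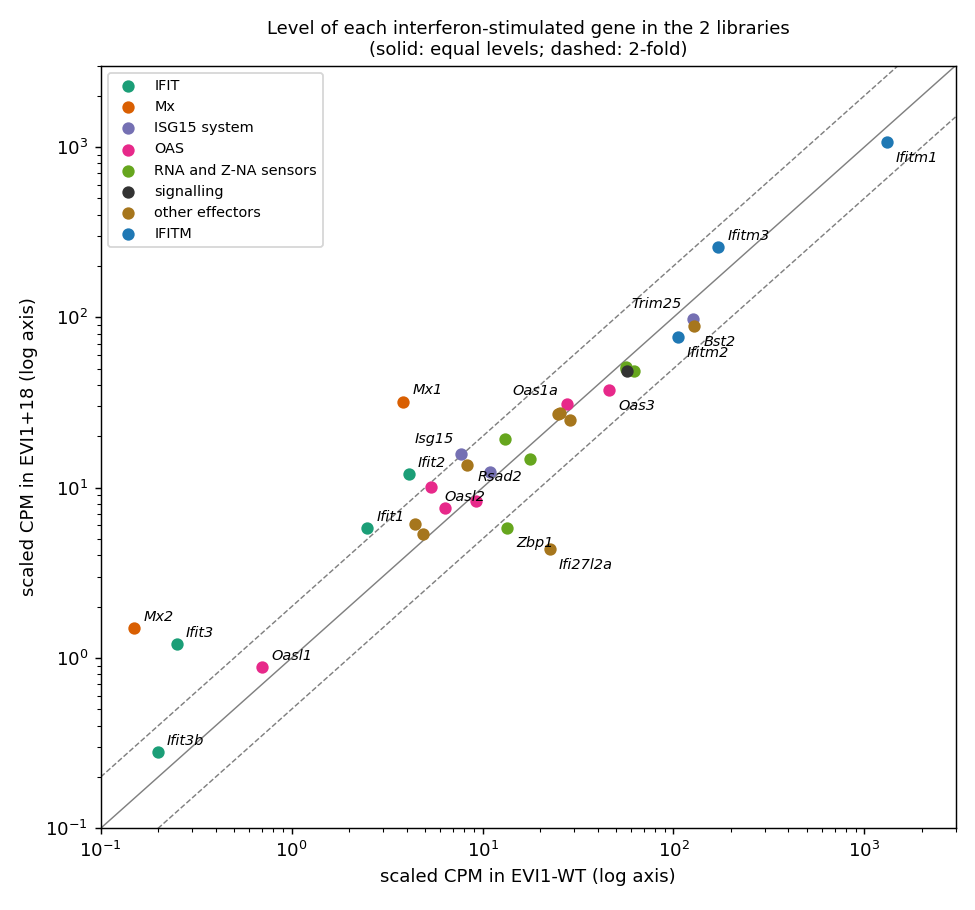
Scaled CPM of the 33 members with a count in EVI1-WT (horizontal) and EVI1+18 (vertical), both on log axes, coloured by subfamily. The solid line marks equal levels and the dashed lines 2-fold. Mx1, Mx2 and the IFIT genes lie at low levels above the solid line, and the IFITM genes at the top right lie near it.

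Levels of different genes were compared per kilobase of exon, which takes out transcript length. Ifitm1 was the highest member, at 1198 (EVI1-WT) and 977 (EVI1+18) scaled CPM per kilobase, followed by Ifitm3 at 253 and 379 and by Ifitm2 at 161 and 117. Bst2 came next with 142 and 98.3. Ifi27l2a followed by the mean of both libraries, with 48.7 in EVI1-WT and 9.36 in EVI1+18. The members ranked 6 to 29 by that mean lay between 19.5 (Trim25) and 1.13 (Xaf1), and the lowest with counts were Mx2 (0.0414 and 0.413) and Ifit3b (0.0999 and 0.140). On the same scale Mx1 had 1.02 in EVI1-WT, near Ifit2 at 1.04, and 8.45 in EVI1+18, near Stat2 at 8.11.

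Across the 31 tested members, the log2 ratio was lower the higher the mean scaled CPM, with a Spearman rho of -0.60 across genes. Over all 13183 tested genes rho was -0.06. Of the 10 tested members under a mean of 10 scaled CPM, 8 had a log2 ratio above 0, and of the 21 at or above it, 9 did. Among all tested genes the shares above 0 were 52.2% under that mean and 50.3% at or above it. Genes of one pathway are not independent, all points come from the same pair of libraries, and 2 of the low members passed the filter only through EVI1+18, so this is a description only. In the promoter groups, the 14 tested members with an ISRE core had a median log2 ratio of 0.20 and ranged from -0.53 to 1.92, with 0 at least 2-fold apart. The 8 tested without a core in their window, Ifit2 among them, ranged from -0.37 to 1.53 with a median of -0.02, and 1 was at least 2-fold higher. No window was given for the other 9 tested members, of which 2 (Mx1 and Mx2) were at least 2-fold higher and 1 (Ifi27l2a) lower. Over all 13183 tested genes, 10.1% were at least 2-fold apart in either direction. Beside that share, counts in groups of 14 and 8 genes are too small to set the promoter groups apart. Also, 3 of the 4 members that were at least 2-fold apart could not be placed in either promoter group.

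The ligands of the pathway were not detected in the main. Of 21 interferon genes 19, Ifnb1 among them, had 0 counts in both libraries. Ifnz had 8 and 9 counts, and Ifng 2 and 0. Of 11 receptor and JAK-STAT genes, 10 were tested, with 1 at least 2-fold lower and 0 higher. That gene was Jak2, a kinase of the interferon gamma and haematopoietic cytokine receptors, at 389 and 138 scaled CPM, 2.82-fold lower (2.70 to 2.94). The type I receptor chains Ifnar1 (58.9 and 44.1 scaled CPM) and Ifnar2 (40.0 and 37.1) and the transcription factor Irf9 (40.7 and 38.2) were all under 2-fold apart, with ratios of 0.75, 0.93 and 0.94.

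Of 16 tested genes in a list for the induction of interferon, 1 was at least 2-fold higher and 1 lower. Irf8, a transcription factor of monocytes and dendritic cells, had 40 and 223 counts, a ratio of 5.20 (3.70 to 7.48). Tmem173, which encodes the DNA-sensing adaptor STING, had 1001 and 397 counts and was 2.70-fold lower (2.40 to 3.04). Among 8 inhibitors of JAK-STAT signalling, Socs1, a feedback inhibitor, was 3.13-fold lower (2.84 to 3.46), at 79.4 and 25.4 scaled CPM, and 0 were higher.

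Calls in the wider interferon-stimulated lists, and in the pathway lists above, stand beside shares of 5.05% higher and 5.1% lower over all tested genes. Of 34 tested genes of a list of other interferon-stimulated genes, 1 passed 2-fold upward and 0 downward, and the median log2 ratio was -0.08. The one was Phf11b, with 1 and 26 counts, a ratio of 24.3 (3.99 to 995), and 47.1% of its words occur in other genes. The 12 tested interferon-inducible GTPases had 2 higher and 0 lower. Gbp8, with 1 and 95 counts, had a ratio of 88.7 (15.5 to 3539), and Gbp9, with 9 and 86 counts, one of 8.92 (4.49 to 20.2), and 18.1% and 8.05% of their words occur in other genes. In the PYHIN family of DNA-binding proteins on chromosome 1, 5 of 6 tested genes were higher, with a median log2 ratio of 2.14. Ifi203 had 24 and 215 counts, a ratio of 8.36 (5.47 to 13.3), and Mndal 30 and 225 counts, a ratio of 7.0 (4.77 to 10.6). The PYHIN genes share sequence, so reads may be split among them. Of the 5 higher genes, Ifi211 (11 and 65 counts) had 72.8% of its words in other genes, and the other 4 ranged from 7.29% (Ifi207) to 20.02% (Ifi204). No test compared these lists with the members.

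**Figure D4:**
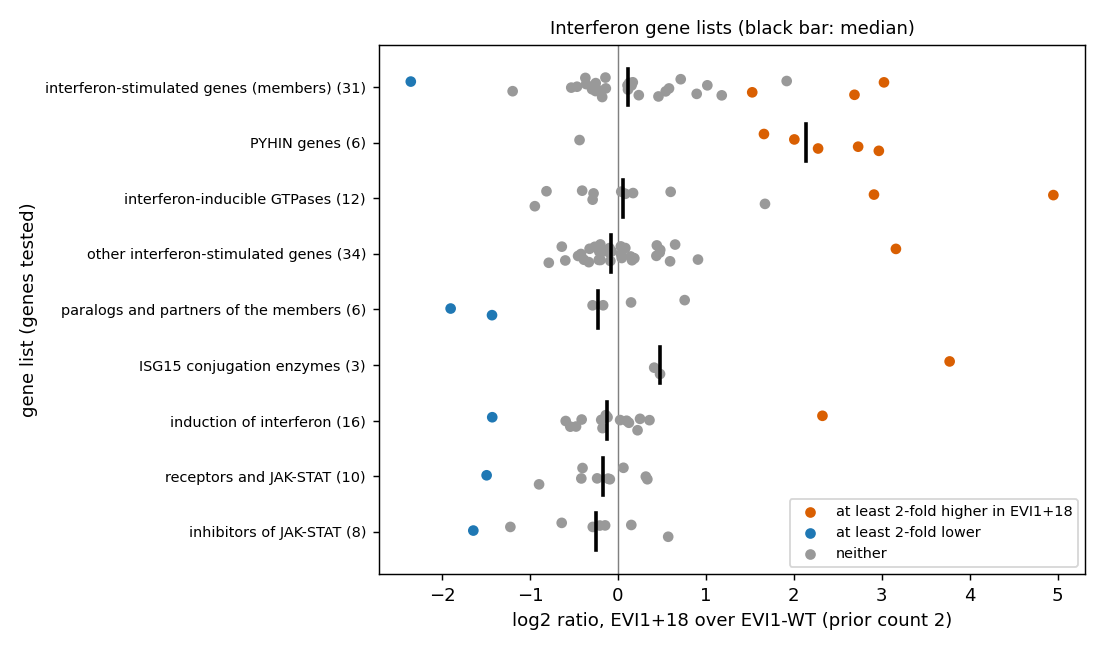
Log2 ratio of EVI1+18 over EVI1-WT for each tested gene of the members and of 8 pathway lists, with the number tested in brackets. Each point is a gene, coloured by whether its whole counting interval lay past 2-fold, and black bars are medians. The PYHIN genes lie mostly to the right, with a median of 2.14, and the members are centred near 0.

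The labels give the starting cells as lineage-negative marrow, and after culture the libraries differed in their markers of blood lineages. Mecom itself had 180 and 209 scaled CPM, a ratio of 1.16 (1.11 to 1.21), which does not separate the vector from the endogenous transcript. Of 11 erythroid markers, 10 were at least 2-fold higher in EVI1+18, and their summed scaled CPM went from 1412 to 12824. Of 8 megakaryocyte markers, 6 were tested and 5 were higher, with sums of 471 and 1336. Of 9 mast cell and basophil markers, 8 were tested, 6 lower and 1 higher, with sums of 4607 and 431. All 4 tested of 7 eosinophil markers were lower, with sums of 850 and 148, and 6 of 9 tested of 10 neutrophil markers were lower, with sums of 2894 and 969. Of 10 monocyte and macrophage markers, 8 were tested, 2 were higher and 2 lower, with sums of 1022 and 486 and C1qa at 0. For plasmacytoid dendritic cells, which are the main source of type I interferon and carry Bst2, 2 of 6 markers were tested and 1 was higher, with sums of 7.74 and 22.7. Cox6a2 went from 2 to 213 counts, a ratio of 99.4 (27.2 to 826), and Tcf4 from 150 to 254, a ratio of 1.58 (1.29 to 1.95). The others were under the filter. Ccr9 had 0 and 16 counts, the defining marker Siglech 0 and 2, Klk1 2 and 2, and Ly6d 1 and 0. The stem and progenitor markers summed to 55.5 and 72.6, with Hlf at 0, those of B cells to 3.40 and 2.24, with Ms4a1 and Ebf1 at 0, and those of T and NK cells to 33.4 and 23.8, with Cd8a and Ncr1 at 0. Their part in the differences of the interferon-stimulated genes was not tested. In RNA from whole cultures, fewer cells of a type and less RNA per cell cannot be told apart.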

How the data were processed

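The authors deposited raw counts, whole-number reads per Ensembl gene, with 1 column per culture. GRCm38 and the tools edgeR, featureCounts, Subread, SAMtools and HISAT2 2.2.1 are named, without order, in the submitters' processing notes. Tool settings, annotation release, strandedness and the handling of multi-mapping reads were not given in the sources used here, so reads of near copies and of overlapping genes are uncertain. Symbols and coordinates came from GENCODE release M21 on GRCm38, which held 55227 of the 55487 IDs. Libraries were scaled with edgeR 4.0.16 (TMM), and exact (Clopper-Pearson) intervals were computed in scipy 1.17.1. With 1 library per group edgeR's quasi-likelihood test has no degrees of freedom and was not run. PCR reads carried no molecular identifiers and need not be separate molecules. Log2 ratios used a prior count of 2. Members and lists were chosen with earlier results of these data known. Named are all members, Mecom and, of each pathway list, up to 2 tested genes in each direction called 2-fold apart, ranked by the interval bound nearest to 1, and a few chosen after their values were seen (Uba7, Herc6, Ifi27l2b, the receptor chains, Irf9, Ifnz, Ifng, Ifi204, Ifi207, Ifi211 and the genes in the closing observations). The lineage markers given by name were also picked with their values known. Mnda and Pyhin1 are older names of listed PYHIN genes and were counted once. Some items are not reported here. Scaling, filter, call rule and prior count were varied.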

Additional observations from a re-analysis of the deposited data

How the results depend on the processing

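The 3 members at least 2-fold higher and the 1 lower were the same in number with total counts, with DESeq2 1.42.0 size factors and without a filter, and a filter at 5 scaled CPM left 2 higher, since Mx2 fell below it. When the ratio itself had to pass 2-fold, 6 members were higher and 2 lower (7.87% and 8.38% of all tested genes), as when the whole interval had to pass 1.5-fold (8.29% and 9.79%). In both cases Ifit1, Ifit3, Isg15 and Zbp1 joined. The median log2 ratio of the members ran from 0.11 to 0.18 over all alternatives. Over the pathway lists together, the reported setting gave 10 higher genes and 5 lower of 95 tested, beside 5.05% and 5.1% of all tested genes. With the filter at 5 scaled CPM, 6 of 85 were higher. Past 1.5-fold, 10 of 95 were lower, beside 9.79% of all tested genes. Total counts shifted the median of all genes by 0.07 on the log2 scale, and intervals that end close to equality could cross it with such a shift. No paired analysis was possible because each group had 1 library. The 3 to 32 counts behind Mx2, Ifit3 and Ifit3b limit their ratios, and no alternative measures the spread between cultures.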

Other observations

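Some genes of the pathway lists that stayed under 1 scaled CPM in both libraries are given as values. Within the IFIT cluster on chromosome 19, Ifit1bl2 went from 17 counts to 1, an 18.2-fold lower level (counting interval 2.85 to 761), whereas its neighbour Ifit1bl1 had 1 and 9 counts, a ratio of 8.40 (1.16 to 368). Of the 50-base words of Ifit1, 7.06% occur in Ifit1bl2. A group of 3 guanylate-binding protein genes showed counts almost only in EVI1+18. Gbp6 had 0 and 20 counts, at least 6.22-fold higher against a floor of 3 counts in EVI1-WT, with a counting interval that starts at 4.61-fold. Gbp11 had 0 and 17 counts, at least 5.29-fold higher against that floor, with an interval that starts at 3.85-fold, and Gbp4 had 2 and 18, a ratio of 8.40 (2.01 to 74.7). Ifi205, of the PYHIN family, had 2 and 20 counts, a ratio of 9.33 (2.27 to 82.4). Shared sequence limits these counts as well. Of the 50-base words of Gbp8, 5.42% occur in Gbp6, 7.37% in Gbp11 and 6.61% in Gbp4. Of those of Ifi211, 44.7% occur in Ifi205.

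Of the OAS paralogs that are no members, Oas1b had 52 and 62 counts, a ratio of 1.11 (0.757 to 1.64), and Oas1c 61 and 112 counts, a ratio of 1.71 (1.24 to 2.38). Aim2, the 1 tested PYHIN gene that was not higher, had 79.4 and 58.7 scaled CPM and was 1.35-fold lower (1.26 to 1.46).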
